A study of Mus musculus with 9 samples.

Results

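Hox genes encode homeodomain transcription factors that give cells their place along the head-to-tail axis and along the limbs, and cultured fibroblasts are known to keep the Hox pattern of the site they were taken from. The genes lie in clusters (HoxA, HoxB, HoxC and HoxD), numbered by paralogue group, with low numbers expressed towards the head and high numbers towards the tail and the tips of the limbs. Within a tissue the pattern is held by Polycomb proteins, which keep silent clusters silent, and Trithorax proteins, which keep active ones open, while retinoic acid is a classical signal that sets it. The Hox genes were therefore read out as a marker of positional identity in the cell lines of this study.

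The Hox genes were taken as every probe set annotated with a single symbol of the form *Hoxa*, *Hoxb*, *Hoxc* or *Hoxd* plus a number. This gave 37 genes, each with 1 probe set, among 21789 single-symbol and 23410 tested probe sets: 10 in HoxA (chromosome 6), 9 in HoxB (chromosome 11), 9 in HoxC (chromosome 15) and 9 in HoxD (chromosome 2). *Hoxb8* had no probe set of its own.

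The samples were 9 arrays of 3T3 cells, an immortalised mouse embryonic fibroblast line. In 3 arrays (KD TNF) the cells expressed an shRNA against Trap-80, a Mediator subunit encoded by *Med17*, and had received 5 ng/ml TNF-α for 1 h. In 3 arrays (WT TNF) cells called wild type, which per the paper expressed an irrelevant shRNA, had received the same stimulation, and in 3 arrays (WT unstimulated) the same wild-type cells had received none. The paper calls the 3 samples of a group independent. The labels do not say whether they were separate cultures or clones, so their spread need not cover that between clones. Per the methods, the Trap-80 shRNAs were cloned into the retroviral vector pSuper-Retro-Puro. Elsewhere the paper describes clonal lines, with a single clone chosen for each shRNA, so that the knock-down and the choice of clone cannot be told apart. Unstimulated knock-down cells were not analysed here, and a difference of the line at rest cannot be told apart from a difference in its response.

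All values are log2 signals. The arrays were alike, with medians over the tested probe sets of 4.95 to 5.09 and correlations between arrays of 0.99 to 1.00 within and between groups. *Med17* read 6.35, 6.22 and 6.17 in KD TNF, against 7.98, 7.93 and 7.77 in WT TNF and 8.10, 8.09 and 7.89 in WT unstimulated. The difference of KD TNF from WT TNF was −1.64 (SE 0.09, adjusted p = 4.8e-05), which left 32.0% of the wild-type signal. An exact two-sided permutation test over the 6 arrays gave p = 0.1, the smallest value that 3 arrays against 3 can give. The signal left is a microarray value. By quantitative PCR the paper reported a stronger loss of Trap-80 mRNA in its knock-down fibroblasts. Of 12 fibroblast markers, all were measured and 2 (*Fap* and *Lum*) were dim, while the collagen gene *Col1a1* lay between 12.46 and 12.70 on every array. Their summed signal, as log2 of the sum, was 14.44 to 14.63 in KD TNF, 14.43 to 14.64 in WT TNF and 14.49 to 14.67 in WT unstimulated. Within that list, however, the KD TNF arrays stood apart for single genes. *Thy1*, a surface glycoprotein of many fibroblasts, read 8.45, 7.96 and 8.52 in KD TNF, against 5.92, 6.38 and 6.35 in WT TNF (difference 2.09, SE 0.19, adjusted p = 0.00048). *Pdgfra*, a growth factor receptor of mesenchymal cells, read 7.38, 6.82 and 7.09 in KD TNF, against 8.95, 8.96 and 9.03 in WT TNF (difference −1.89, SE 0.12, adjusted p = 9.5e-05). *S100a4* was higher by 0.55 in KD TNF. None of the 7 epithelial, 5 leukocyte, 6 endothelial and 5 pluripotency markers measured passed the test by limma in this comparison, and none was past an unadjusted p of 0.05. Of these markers, 2 epithelial, 2 leukocyte, 4 endothelial and 2 pluripotency genes were dim by their mean over the 9 arrays, and the others were not. *Epcam*, *Ptprc*, *Pecam1* and *Pou5f1* were among the dim ones.

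Not every Hox probe set carried signal that could be told from background. The file holds no detection call, so a probe set was called dim where its mean over the 9 arrays lay under 3.89, the 95th percentile of 1023 olfactory receptor probe sets, a family not expected in fibroblasts. By this limit 18 of the 37 Hox genes were dim: 4 of 10 in HoxA, 1 of 9 in HoxB (*Hoxb13*), 8 of 9 in HoxC and 5 of 9 in HoxD. With the median of all tested probe sets (5.02) as the limit, 28 were below it, among them all of HoxC and HoxD, and the 9 above it were *Hoxa4*, *Hoxa5* and 7 HoxB genes. Signals of different probe sets depend on their probes, so these counts do not rank the genes by mRNA.

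The question set for these genes was whether the pattern of the knock-down line is that of the wild-type line. Between the stimulated groups, 3 of the 37 genes were higher in KD TNF than in WT TNF at an adjusted p under 0.05 and 0 were lower, all 3 of them in HoxB: *Hoxb2*, *Hoxb5* and *Hoxb9*. The background in this comparison was 3.36% of all tested probe sets higher and 2.6% lower (5.96% in either direction). Before adjustment, 6 Hox genes were higher with p under 0.05 and 2 were lower, against 9.34% and 8.09% of all tested probe sets. KD TNF lay entirely above WT TNF for 4 genes and entirely below it for 3, against 10.9% and 10% of all tested probe sets. A filter after the study's methods took 5 Hox genes as higher and 2 as lower, against 8.66% and 7.76%. It asked for limma's unadjusted p under 0.1. The differences of the KD TNF arrays from the WT TNF mean also had to have an SD under 0.5 of their mean. The spread of the WT TNF arrays therefore entered only through p. With the replicate number as a block, though same-numbered arrays need not be pairs, 1 gene was lower (*Hoxa5*, adjusted p = 0.027) and the 3 higher genes were the same. The median difference over the 37 genes was −0.03, beside −0.02 over all tested probe sets.

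*Hoxb2*, which acts in the hindbrain and branchial arches, read 6.99, 7.13 and 7.25 in KD TNF, against 6.52, 6.45 and 6.67 in WT TNF and 6.44, 6.31 and 6.32 in WT unstimulated. Every KD TNF array lay above every wild-type array. The difference from WT TNF was 0.57 (SE 0.09, a 1.49-fold higher signal, adjusted p = 0.0064), and it passed the test with any of the 6 arrays compared left out (adjusted p up to 0.035).

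*Hoxb5*, which acts at the level of the neck and upper trunk, read 5.63, 5.54 and 5.77 in KD TNF, against 5.31, 5.07 and 5.02 in WT TNF and 4.91, 5.12 and 5.15 in WT unstimulated. The KD TNF arrays again lay above all wild-type arrays. The difference from WT TNF was 0.51 (SE 0.11, 1.43-fold, adjusted p = 0.022). It no longer passed without WT TNF replicate 2 (adjusted p = 0.083), WT TNF replicate 3 (0.069), KD TNF replicate 1 (0.067) or KD TNF replicate 3 (0.085), with differences of 0.48, 0.46, 0.52 and 0.45, nor with all 35557 probe sets of the file tested (0.053).

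*Hoxb9*, a gene of the thoracic region, read 7.27, 7.61 and 7.78 in KD TNF, against 7.12, 6.79 and 6.85 in WT TNF and 6.96, 6.90 and 6.82 in WT unstimulated. The groups did not overlap, although KD TNF replicate 1 lay nearer to the wild-type arrays than the other 2. The difference from WT TNF was 0.63 (SE 0.13, 1.55-fold, adjusted p = 0.026). It no longer passed without WT TNF replicate 2 (adjusted p = 0.099), WT TNF replicate 3 (0.075), KD TNF replicate 2 (0.093) or KD TNF replicate 3 (0.086), nor in a fit of the 6 arrays compared alone (0.080) or with all 35557 probe sets tested (0.063).

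**Figure D1:**
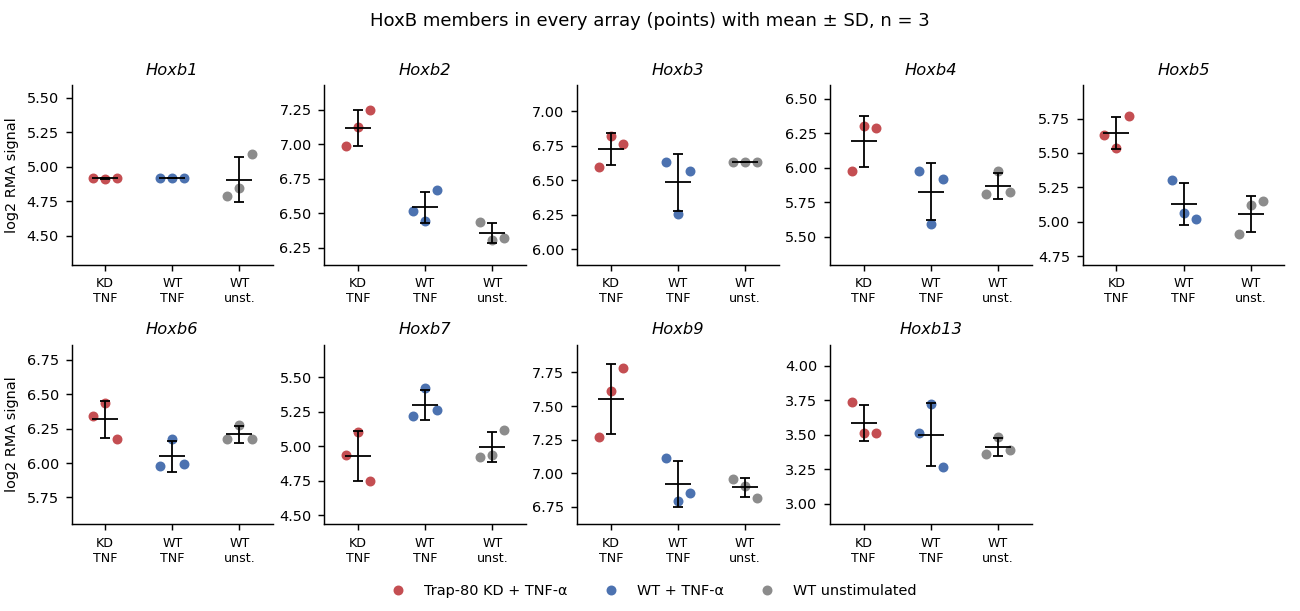
Log2 signal of the 9 HoxB genes on each array (points), with the mean ± SD of each group of 3 (bars). Each panel has its own vertical axis in log2 units, and KD TNF, WT TNF and WT unstimulated run from left to right. *Hoxb2*, *Hoxb5* and *Hoxb9* show the KD TNF arrays above all wild-type arrays, whereas *Hoxb7* shows them below the WT TNF arrays.

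The other HoxB genes did not pass the test. *Hoxb4* read 5.98, 6.31 and 6.29 in KD TNF, against 5.97, 5.59 and 5.92 in WT TNF (difference 0.36, SE 0.13, adjusted p = 0.16). The difference was 0.24 for *Hoxb3* (adjusted p = 0.28) and 0.27 for *Hoxb6* (adjusted p = 0.14), with overlapping arrays. *Hoxb7*, the neighbour of these genes in the cluster, had a difference of the other sign. It read 4.94, 5.11 and 4.75 in KD TNF, against 5.22, 5.42 and 5.26 in WT TNF (difference −0.37, SE 0.11, adjusted p = 0.086). *Hoxb1*, the gene at the head end of the cluster, had a difference of 0.00 (95% interval −0.19 to 0.19), and *Hoxb13*, at the tail end, of 0.09. The cluster held 7 positive and 2 negative differences, with a median of 0.27, beside a median of −0.02 over all tested probe sets. The mean signal over the HoxB genes was 5.82, 5.93 and 5.91 in KD TNF, against 5.69, 5.60 and 5.61 in WT TNF and 5.55, 5.61 and 5.61 in WT unstimulated, and the KD TNF arrays did not overlap those of the wild type. That mean includes the called genes *Hoxb2*, *Hoxb5* and *Hoxb9*, so it partly restates their differences and does not show a shift of the whole cluster.

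HoxA showed no gene past the threshold between KD TNF and WT TNF, with 1 lower and 0 higher where p was taken unadjusted at 0.05, and a median difference of −0.18 (2 positive, 8 negative). The lower gene was *Hoxa5*, which helps to pattern the neck and the lung. It read 4.67, 4.71 and 4.89 in KD TNF, against 5.10, 5.06 and 5.16 in WT TNF and 5.24, 5.10 and 5.43 in WT unstimulated. All KD TNF arrays lay below all wild-type arrays. The difference from WT TNF was −0.35 (SE 0.10, adjusted p = 0.080). With the replicate numbers of the labels as a block, the same difference passed (adjusted p = 0.027), though same-numbered arrays need not be pairs. It also passed where only probe sets at or above the median signal were tested (adjusted p = 0.047). The same held where WT unstimulated replicate 3 was left out of the fit (adjusted p = 0.041). It did not pass with arrays centred on their median (0.18), normalized by quantiles again (0.16) or with all 35557 probe sets tested (0.15). Nor did it pass with another spread model (0.10), with the 6 arrays compared alone (0.067) or with any of these 6 left out (0.077 to 0.22). The mean signal over the HoxA genes was 4.07, 4.19 and 4.11 in KD TNF, against 4.26, 4.27 and 4.26 in WT TNF and 4.13, 4.24 and 4.30 in WT unstimulated. The KD TNF arrays lay below those of WT TNF but overlapped those of WT unstimulated.

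*Hoxa3*, needed for the thymus and other derivatives of the pharyngeal arches, read 3.32, 3.77 and 3.69 in KD TNF, against 3.82 on all 3 arrays of WT TNF and 4.26, 4.49 and 4.37 in WT unstimulated. The groups did not overlap in any pairing, and the KD TNF and WT TNF arrays lay under the limit for dim signal, which the mean over all arrays (3.93) exceeded. The difference of KD TNF from WT TNF was −0.22 (SE 0.12, adjusted p = 0.38). In RefSeq the span of *Hoxa3* overlaps those of *Hoxa4*, *Hoxa5* and *Hoxa6*, and the probe sets of these genes may read shared transcripts. *Hoxa4* read 5.78, 5.83 and 5.78 in KD TNF, against 5.78, 5.82 and 5.78 in WT TNF and 5.65, 5.72 and 5.70 in WT unstimulated, a difference between the stimulated groups of 0.00 with a 95% interval of −0.14 to 0.14. The difference from WT TNF was −0.21 for *Hoxa6*, −0.05 for *Hoxa7* and −0.24 for *Hoxa9*, none past an unadjusted p of 0.05.

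**Figure D2:**
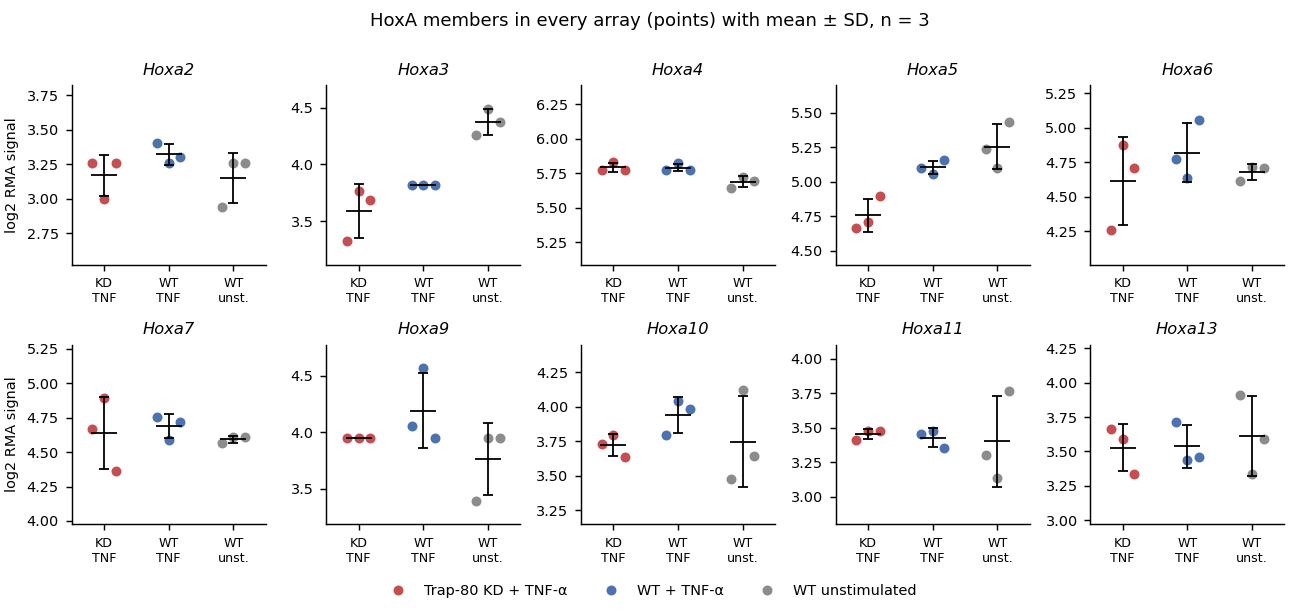
Log2 signal of the 10 HoxA genes on each array (points), with the mean ± SD of each group of 3 (bars), each panel with its own vertical axis in log2 units. For *Hoxa3* and *Hoxa5* the KD TNF arrays lie below all wild-type arrays. The repeated equal values of *Hoxa3* and *Hoxa9* are as deposited.

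In HoxC and HoxD, whose posterior genes pattern the lower trunk and, for HoxD, the limbs, 0 genes passed the test in either direction and 0 were past an unadjusted p of 0.05 by limma, and no gene had arrays that did not overlap between KD TNF and WT TNF. The median difference was −0.06 in HoxC and −0.01 in HoxD. All 95% intervals lay within −0.47 to 0.36 in HoxC and within −0.33 to 0.31 in HoxD. *Hoxc9*, the HoxC gene that was not dim, read 4.16, 4.31 and 4.16 in KD TNF, against 4.16, 4.04 and 4.16 in WT TNF and 4.16, 4.16 and 4.03 in WT unstimulated. *Hoxc12* read 3.78, 3.92 and 3.87 in KD TNF, against 3.87, 4.13 and 3.87 in WT TNF and 3.70, 3.63 and 4.09 in WT unstimulated. Both genes overlapped between all groups. *Hoxd1*, at the head end of its cluster, averaged 4.07 (SD 0.07, n = 3) in KD TNF, against 4.10 on all WT TNF and WT unstimulated arrays. *Hoxd11*, which patterns the forearm, read 4.29, 4.31 and 4.23 in KD TNF, against 4.29 on all WT TNF arrays and 4.29, 4.40 and 4.27 in WT unstimulated. The span of *Hoxd11* overlaps that of *Hoxd10* in RefSeq. Several genes of the posterior groups were dim, among them *Hoxa13*, *Hoxc13* and *Hoxd13*, which mark the tail end and the hand and foot.

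By position along the clusters, 1 gene was higher and 0 lower among the 11 genes of paralogue groups 1 to 4 (*Hoxb2*), 1 and 0 among the 10 of groups 5 to 8 (*Hoxb5*), and 1 and 0 among the 16 of groups 9 to 13 (*Hoxb9*). The median differences of these classes were 0.00, −0.05 and −0.01. The 18 dim genes held 0 called genes, and 0 at an unadjusted p under 0.05, in this comparison.

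**Figure D3:**
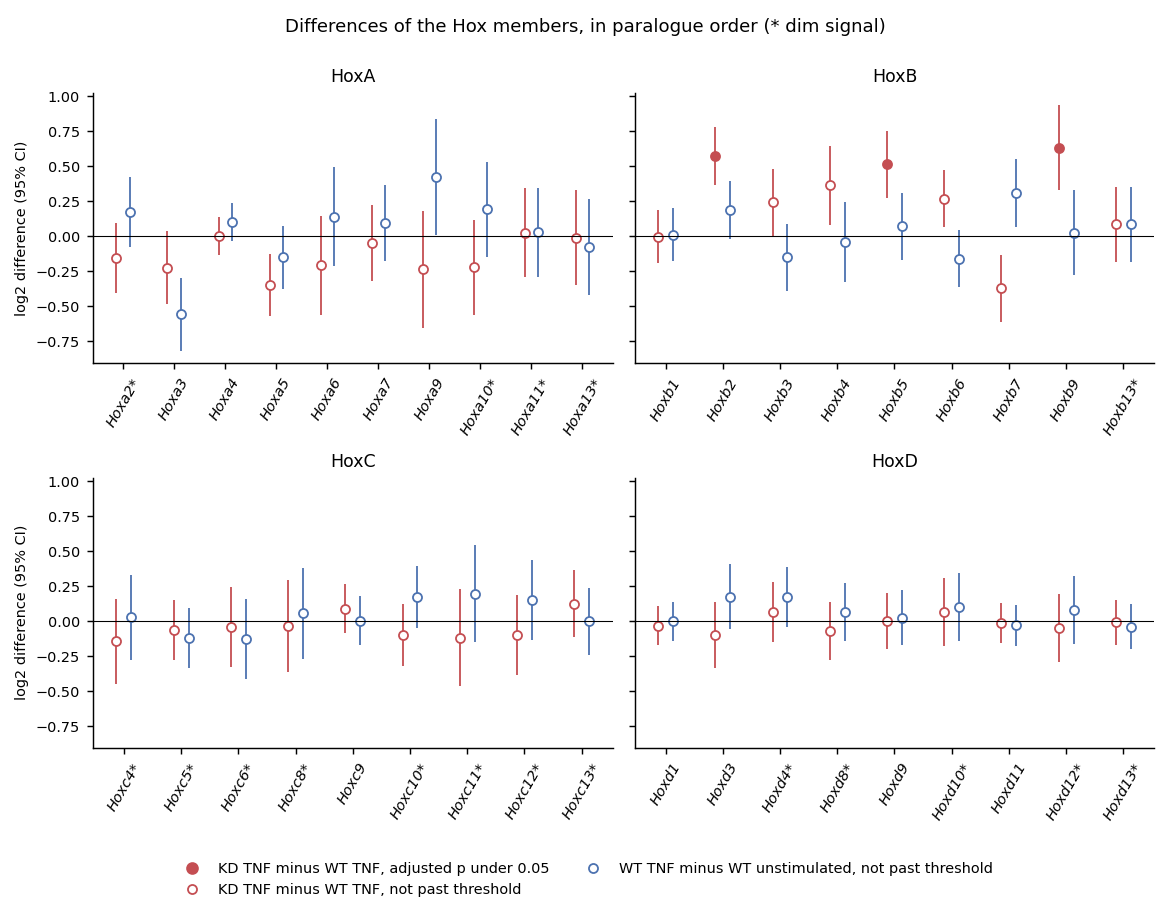
Difference in log2 signal (vertical axis) with its 95% interval (bars) for each of the 37 Hox genes, by cluster and in paralogue order. Red is KD TNF minus WT TNF, with filled points at an adjusted p under 0.05, and blue is WT TNF minus WT unstimulated; an asterisk marks a dim probe set. The filled points are *Hoxb2*, *Hoxb5* and *Hoxb9*, and the HoxC and HoxD intervals all include 0.

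The response of the Hox genes to TNF-α itself was read from the wild-type arrays. Between WT TNF and WT unstimulated, limma called 0 of the 37 genes in either direction, where the background was 0.115% of all tested probe sets (0.111% higher and 0.00427% lower). Before adjustment, 2 had p under 0.05 and were higher (*Hoxb7* by 0.31 and *Hoxa9* by 0.42) and 1 lower (*Hoxa3*), against 3.52% and 3.58% of all tested probe sets. WT TNF lay entirely above WT unstimulated for 3 genes and entirely below it for 1, against 4.01% and 6.18% of all tested probe sets. The same filter after the study's methods gave 1 higher and 1 lower, against 3.1% and 4.36% of all tested probe sets. For *Hoxa3* the values given above correspond to a difference of −0.56 (SE 0.12, adjusted p = 0.23). The median over the 37 genes was 0.05, beside −0.02 over all tested probe sets.

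KD TNF was also set against WT unstimulated, a comparison that shares its knock-down arrays with the first and carries both the line and the stimulation. Here 3 genes were higher and 2 lower, against a background of 3.64% and 4.62% (8.25% in either direction). Before adjustment, 5 were higher with p under 0.05 and 2 were lower, against 9.15% and 11.4%, and KD TNF lay entirely above WT unstimulated for 7 genes and entirely below it for 2, against 10.8% and 12.6%. *Hoxb2* was higher by 0.76 (SE 0.09, adjusted p = 0.0013), *Hoxb5* by 0.59 (SE 0.11, adjusted p = 0.0093) and *Hoxb9* by 0.66 (SE 0.13, adjusted p = 0.017). *Hoxa5* fell by 0.50 (SE 0.10, adjusted p = 0.014). *Hoxa3* passed with a difference of −0.78 (SE 0.12, adjusted p = 0.0036), but all 3 KD TNF arrays lay under the limit for dim signal, so that the size of the difference is uncertain. *Hoxb9* no longer passed without WT unstimulated replicate 2 (adjusted p = 0.052), KD TNF replicate 2 (0.062) or KD TNF replicate 3 (0.056). *Hoxa5* no longer passed without KD TNF replicate 1 (0.058) or replicate 2 (0.054), which left 1 lower gene, whereas *Hoxa3* passed in every such fit (adjusted p up to 0.018). Without WT unstimulated replicate 3, *Hoxd4* was called as well (difference 0.34, adjusted p = 0.036). HoxC and HoxD again held 0 calls by limma, with 1 gene at an unadjusted p under 0.05 (*Hoxd4*, higher by 0.24).

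The regions before the RefSeq starts of *Hoxa3* and *Hoxa5* are shown, as both are HoxA genes whose windows were on file. These were the genes called lower in KD TNF than in WT unstimulated. The *Hoxa3* window is at the outer start of its long RefSeq span, upstream of the starts of *Hoxa4*, *Hoxa5* and *Hoxa6*. The windows are from RefSeq, build GRCm38.p6, and run on the minus strand from 250 bases before to 50 bases after a gene start; *Hoxb2*, *Hoxb5* and *Hoxb9* had no window there. Capitals mark TAAT, the core bound by many homeodomain proteins, or ATTA, the same core on the other strand.
Hoxa3, chr6:52213018-52213317: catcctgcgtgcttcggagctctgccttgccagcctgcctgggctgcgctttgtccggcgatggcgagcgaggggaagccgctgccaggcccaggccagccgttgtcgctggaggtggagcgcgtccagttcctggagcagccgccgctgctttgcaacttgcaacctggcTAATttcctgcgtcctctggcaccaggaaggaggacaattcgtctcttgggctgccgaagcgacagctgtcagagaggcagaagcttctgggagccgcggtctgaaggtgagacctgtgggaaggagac
Hoxa5, chr6:52204538-52204837: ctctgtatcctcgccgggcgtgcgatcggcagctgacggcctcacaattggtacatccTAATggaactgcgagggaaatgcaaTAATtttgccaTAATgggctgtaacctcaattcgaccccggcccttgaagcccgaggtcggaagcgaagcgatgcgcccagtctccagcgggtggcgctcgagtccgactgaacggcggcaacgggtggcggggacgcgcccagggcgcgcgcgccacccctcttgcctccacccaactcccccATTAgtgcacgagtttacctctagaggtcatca
The *Hoxa3* window held 1 such core and the *Hoxa5* window 4, and 58.0% of all 32851 RefSeq windows hold at least 1. The Pbx-Hox composite TGATTNAT (ATNAATCA on the other strand; in 3.22% of all windows) and the TATA box TATAAA, read on the gene's strand (8.32%), were in neither. No matches shared bases. G and C made up 64.0% of the *Hoxa3* window and 61.7% of the *Hoxa5* window, against a median of 52.7% over all windows and 58.0% over the 23 windows of 21 Hox genes. These are matches of letters and not measured binding sites.

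Hox proteins bind DNA with TALE homeodomain partners, and 8 of 9 such genes were measured. Between KD TNF and WT TNF 0 were higher and 1 lower, where 3.36% and 2.6% of all tested probe sets were called. The same shares apply to the lists that follow for this comparison. The lower gene, *Meis2*, read 6.46, 6.63 and 6.72 in KD TNF, against 6.91, 7.04 and 7.18 in WT TNF (difference −0.44, SE 0.10, adjusted p = 0.035). Its paralogue *Meis1* read 8.36, 8.31 and 8.67 in KD TNF, against 7.71, 7.42 and 8.11 in WT TNF, without overlap, and did not pass (difference 0.70, SE 0.18, adjusted p = 0.052). *Pbx3* differed by 0.00.

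Of the keepers of Hox silence, 22 of 24 Polycomb group genes were measured, and 0 were higher and 1 lower. It was *Kdm2b*, which brings a Polycomb complex to CpG islands: 5.92, 5.90 and 5.90 in KD TNF, against 6.53, 6.31 and 6.31 in WT TNF (difference −0.47, SE 0.10, adjusted p = 0.026). Before adjustment, 6 Polycomb genes were higher with p under 0.05 by limma and 3 were lower, against 9.34% and 8.09% of all tested probe sets. Most of the Polycomb list went the other way from *Kdm2b*, with 16 positive and 6 negative differences and a median of 0.09. Of 12 Trithorax group and demethylase genes measured of 13 listed, 0 passed by limma. Where p was taken unadjusted at 0.05, 1 was higher and 0 lower, against the same 9.34% and 8.09% of all tested probe sets. Of 11 measured genes that feed patterning signals to the clusters, of 12 listed, 0 were higher and 1 lower. *Cyp26b1*, which breaks down retinoic acid, read 5.05, 5.29 and 5.36 in KD TNF, against 6.15, 6.17 and 5.94 in WT TNF (difference −0.86, SE 0.12, adjusted p = 0.004). KD TNF and WT TNF did not overlap for *Kdm2b* or *Cyp26b1*, both of which were named because they passed.

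Position is also recorded by transcription factors outside the Hox clusters. Of 34 measured of 39 listed, 4 were higher and 1 lower in KD TNF than in WT TNF, against 3.36% and 2.6% of all tested probe sets. Before adjustment, 5 were higher with p under 0.05 by limma and 7 were lower, against 9.34% and 8.09% of all tested probe sets. The list held 12 positive and 22 negative differences, with a median of −0.06. *Tbx3*, a T-box factor of the limb, read 8.55, 8.54 and 8.48 in KD TNF, against 7.84, 8.01 and 7.98 in WT TNF (difference 0.58, SE 0.08, adjusted p = 0.0025). *Twist2*, of dermal mesenchyme, read 7.16, 7.47 and 7.24 in KD TNF, against 6.40, 6.62 and 6.03 in WT TNF (difference 0.94, SE 0.18, adjusted p = 0.017). *Six2*, known from kidney and facial mesenchyme, was higher by 0.51 (adjusted p = 0.036), and *Msx1*, of limb and facial mesenchyme, by 0.51 (adjusted p = 0.0496). *Prrx2*, a homeobox gene of limb and facial mesenchyme, read 7.23, 7.38 and 7.41 in KD TNF, against 7.97, 7.92 and 7.99 in WT TNF (difference −0.62, SE 0.09, adjusted p = 0.0045). These 5 genes were named because they passed, and for each no KD TNF array lay within the range of the WT TNF arrays. Over all tested probe sets, called or not, KD TNF lay entirely above WT TNF for 10.9% and entirely below it for 10%. Factors that mark a place in the body in other fibroblasts, such as *Tbx5* of the forelimb (difference −0.04, adjusted p = 0.87), *Tbx4* of the hindlimb (−0.06, adjusted p = 0.84) and *En1* (−0.11, adjusted p = 0.72), did not pass.

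**Figure D4:**
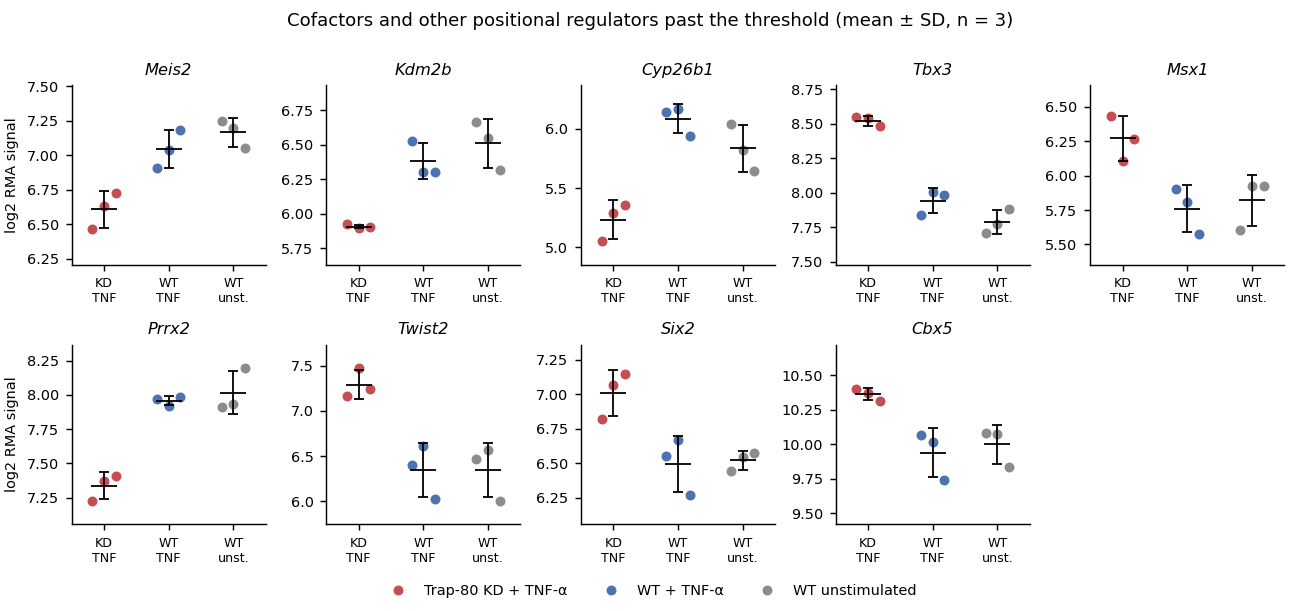
Log2 signal on each array (points) with the mean ± SD of each group of 3 (bars) for the genes of the cofactor, chromatin, patterning, positional and flanking lists that passed the test between KD TNF and WT TNF. Panels have their own vertical axes in log2 units. In every panel the KD TNF arrays lie apart from the WT TNF arrays, above them for *Tbx3*, *Msx1*, *Twist2*, *Six2* and *Cbx5* and below them for the others.

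The genes that flank the clusters were read for comparison. Of 15 measured of 17 listed, 1 was higher and 0 lower in KD TNF than in WT TNF. That gene was *Cbx5*, which encodes heterochromatin protein HP1α and lies near HoxC: 10.40, 10.37 and 10.31 in KD TNF, against 10.06, 10.02 and 9.74 in WT TNF (difference 0.42, SE 0.11, adjusted p = 0.048). Beside HoxB, *Snx11* had a difference of 0.33 (adjusted p = 0.13) and *Skap1*, which was dim, of −0.01. Most flanking genes had lower signal in KD TNF, with 2 positive and 13 negative differences and a median of −0.07. Before adjustment, 2 were higher and 2 lower with p under 0.05 by limma, against 9.34% and 8.09% of all tested probe sets.

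The same groups differed in *Thy1*, *Pdgfra* and *S100a4*, whose part in the Hox values was not tested. Many deposited values were exactly equal on 3 or more arrays, in 20 of the 37 Hox genes (54.1%) and in 8576 of 23410 tested probe sets (36.6%). Every SE given is from limma's moderated spread.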

How the data were processed

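RNA of 9 samples was hybridised on Affymetrix Mouse Gene 1.0 ST arrays. The authors deposited log2 values per probe set, made by RMA (background correction, normalization and summarisation; version not given in the sources used here), and nothing was rescaled here. RMA compresses low signals and can leave equal values on several arrays. Probe sets were named from the platform's annotation: 21789 of 35557 had 1 symbol, 1621 several and 12147 none, and 0 symbols were updated from RefSeq. The 23410 named probe sets were fitted with limma 3.58.1 in R 4.3.3 (1 model of 3 groups, eBayes), with Benjamini-Hochberg adjustment over all of them and a threshold of 0.05, two-sided. The script was tested on simulated data. With 3 arrays a group, precision is limited by their number; the median SE of a difference was 0.10.

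Members and gene lists were chosen with earlier results of these data known. Hox genes that passed in any comparison, and the 2 with the highest mean signal in each cluster, were given with every array, as were list genes that passed between KD TNF and WT TNF.

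Replicate numbers come from the labels. Deviations from the group means were correlated between arrays of the same number and of unlike numbers. Between KD TNF and WT TNF these were 0.15 to 0.46 and −0.39 to 0.16. Between WT TNF and WT unstimulated they were 0.11 to 0.40 and −0.40 to 0.25. Between KD TNF and WT unstimulated they were 0.00 to 0.22 and −0.23 to 0.16. In each comparison the highest value was that between the arrays numbered 3 (0.46, 0.40 and 0.22), whose correlations with unlike numbers were negative. Whether arrays of that number shared an effect was not tested. The ranges of same and unlike numbers overlap, so the numbers do not establish pairs, and the block was used only as an alternative fit. Alternatives were the replicate block, other normalization, other sets of arrays or probe sets, another spread model, a filter after the methods and leaving out each array. That filter, called the methods' filter, took limma's unadjusted p under 0.1. It also took an SD under 0.5 of the mean for the first group's differences from the other group's mean.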

Additional observations from a re-analysis of the deposited data

Results flagged for a closer look

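*Hoxb8* was measured only by a probe set that the annotation lists to both *Hoxb8* and *Hoxb7*, which was in none of the comparisons above. It stood out because its arrays did not overlap between the stimulated groups. It read 5.90, 5.61 and 5.63 in KD TNF, against 5.57, 5.24 and 5.15 in WT TNF and 5.41 on all WT unstimulated arrays, a difference of KD TNF from WT TNF of 0.39 (SE 0.12, adjusted p = 0.11). The probe set of *Hoxb7* alone had a difference of −0.37.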

How the results depend on the processing

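The limits are 3 arrays a group, dim signal for 18 of 37 Hox genes (28 with the median of tested probe sets as the limit) and tied values. No result reversed, and the cause of each change below was not tested unless given.

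Between KD TNF and WT TNF, 1 Hox gene was higher with all 35557 probe sets tested, where *Hoxb5* (adjusted p = 0.053) and *Hoxb9* (0.063) were lost, 5 with the methods' filter (8.66% of all tested probe sets), and 1 to 3 with an array left out (1 without WT TNF replicate 2 or 3 or KD TNF replicate 3). In the same comparison 1 was lower with the replicate block (*Hoxa5*), 1 with only probe sets at or above the median, 2 with the methods' filter (7.76%) and 0 with any of the 6 arrays compared left out. Between WT TNF and WT unstimulated the methods' filter gave 1 higher (3.1% of all tested probe sets) and 1 lower (4.36%). Between KD TNF and WT unstimulated, 1 was lower with only probe sets at or above the median, since *Hoxa3* lies below that limit and was not tested, and 1 to 2 with an array left out (2 to 4 higher). The *Med17* difference was −1.70 to −1.60 with an array left out.

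The block changed no other call of a Hox gene. In all comparisons the labels give only a shared number. Between KD TNF and WT unstimulated the block gave the same 5 genes. Centring each array on its median changed the sign for 9 Hox genes between KD TNF and WT TNF, all with differences of 0.05 or less in size, and raised the share of higher calls over all probe sets to 68.8%, against 56.3%; the same 3 HoxB genes were called.

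Over all probe sets, calls between KD TNF and WT TNF numbered 1395, against 2108 with the block, 937 with all probe sets tested and 738 to 1596 with an array left out. Between WT TNF and WT unstimulated they numbered 27, against 55 with the block, 9 with only the 6 arrays compared, 13 with all probe sets, 41 at or above the median and 9 to 23 with an array left out. Between KD TNF and WT unstimulated they numbered 1932, against 1147 to 1944 with an array left out.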

Other observations

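Some regulators of the Hox clusters passed the test between KD TNF and WT unstimulated and not between KD TNF and WT TNF, and the difference between these comparisons was not tested. Between KD TNF and WT unstimulated, 0 TALE cofactors were higher and 2 lower, 1 Polycomb gene was higher and 2 lower, 1 Trithorax or demethylase gene was higher and 0 lower, and 2 patterning genes were higher and 2 lower, where 3.64% and 4.62% of all tested probe sets were called. Those that passed only this test were *Ezh2*, the H3K27 methyltransferase of Polycomb (−0.45, adjusted p = 0.037), *Gdf11*, a TGF-β family ligand of axial patterning (−0.37, adjusted p = 0.0097), *Meis3* (−0.36, adjusted p = 0.044), *Phc2* (0.38, adjusted p = 0.031), *Rarb*, whose probe set was dim (0.32, adjusted p = 0.030), *Kdm6b* and *Egr2*. KD TNF had higher *Kdm6b*, an H3K27 demethylase, with 7.52, 7.23 and 7.81 in KD TNF, against 6.50, 6.58 and 6.76 in WT unstimulated (difference 0.91, adjusted p = 0.0069). The WT TNF arrays read 7.14, 7.16 and 7.50, and their difference from WT unstimulated, 0.66, did not pass (adjusted p = 0.34). *Egr2*, which activates *Hoxb2* in the hindbrain, read 7.01, 6.67 and 7.46 in KD TNF, against 6.95, 6.66 and 8.49 in WT TNF and 4.75, 5.05 and 5.08 in WT unstimulated. Its difference was 2.09 between KD TNF and WT unstimulated (adjusted p = 0.015) and 2.41 between WT TNF and WT unstimulated (adjusted p = 0.12), where the arrays did not overlap.

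Noncoding genes within the clusters had no call between KD TNF and WT TNF. *Mir10a* and *Mir196a-1* of HoxB, *Mir196a-2* of HoxC and *Mir10b* of HoxD were dim in all groups. *Mir615* of HoxC had a mean of 6.13 in KD TNF, 6.25 in WT TNF and 6.14 in WT unstimulated. *Hottip*, a noncoding RNA at the tail end of HoxA, was dim, with a mean of 3.28 in KD TNF, 3.54 in WT TNF and 3.26 in WT unstimulated, and *Hoxaas2* differed by −0.15 between KD TNF and WT TNF (adjusted p = 0.35).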
